A study of Mus musculus with 16 samples.

Results

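The tumour necrosis factor (TNF) superfamily consists of ligands, most of them made as membrane-bound trimers, and of the receptors that bind them. Members were taken by gene symbol as the ligands and receptors of the family, the TNF receptor-associated factors (TRAFs), the adaptor Tradd and the cellular inhibitors of apoptosis (IAPs) Birc2 and Birc3. In all, 47 genes were measured and tested, among 20629 features tested on the array. They comprise 15 ligands, 24 receptors, 5 TRAFs, 1 adaptor and 2 IAPs, and the kinases Ripk1 and Ripk2 and the TRAF family member Traf3 were not analysed here.

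Lungs came from male C57/BL6 mice, 8 weeks old, in 2 groups: one inhaled an LPS aerosol over 5 days and had its lungs taken as the last inhalation ended, the other breathed air over the same days and had its lungs taken when day 5 ended. No engineered allele or second agent is named in the labels. LPS, lipopolysaccharide, is the outer-membrane glycolipid of Gram-negative bacteria. Each group had 4 pools of total lung RNA with 3 animals in a pool, so a value is an average over animals, and each pool was compared with a commercial universal mouse reference RNA on a pair of dual-colour arrays with exchanged dyes. A level is given as log2(lung/reference) per pool, and a difference as LPS minus air on that scale. A gene was called higher or lower when its limma p, adjusted over all features by Benjamini-Hochberg, was under 0.05. Levels of different genes are not set against each other, since each ratio also holds the level of that gene in the reference.

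TNF family receptors fall into those with a death domain, which can recruit caspase-activating complexes, those that bind TRAFs and lead to NF-kB and MAP kinase signalling, and decoys that bind ligand without a full signalling tail. Birc2 and Birc3 (cIAP1 and cIAP2) are ubiquitin ligases recruited through TRAF2, and favour NF-kB signalling over cell death at the TNF receptor. In the lung, TNF from alveolar macrophages is among the first cytokines released after LPS, and acts on endothelium and epithelium to bring in leukocytes.

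Several facts touch all values. Positive signal in both channels was found on 96.1% to 99.5% of the spots of an array, with a median lung signal of 4.28 to 28.2 times the local background. The number of pools, 4 per group, limits precision. The paired arrays of a pool correlated at r = 0.418 for LPS pool 3, 0.479 for air pool 2 and 0.596 for LPS pool 4. The other pools with paired arrays had r = 0.795 (air pool 1) to 0.899 (LPS pool 1). The file of 1 array of air pool 4 (lung in Cy3) held a Cy5 channel that matched another array (r = 0.9985), so that array was left out and air pool 4 rests on 1 array. There were 2 versions of the image-analysis program behind the files: LPS pools 1 and 2 with air pools 3 and 4 (version 2.2.3), and LPS pools 3 and 4 with air pools 1 and 2 (version 2.2.4). These sets are called batches below, and the values within each are given beside the results. A week number in the image names was 1 for every LPS array and 4 or 8 for the air arrays, and its part cannot be told apart from that of LPS. Gene names depend on how the probe list was laid on the grid of spots: with the layout used, paired probes of the same gene correlated at r = 0.522 over 1030 pairs, against at most 0.0695 for the other 7 layouts. As a check of the tissue, the 21 measured markers of alveolar and airway epithelium averaged 1.97 to 2.88 across the LPS pools and 1.54 to 2.58 across the air pools, above the reference RNA in all 8.

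In the LPS group 9 members had a higher level than in the air group and 2 a lower one, and the other 36 fell short of the threshold. The 9 higher ones are 19.1% of the members, where 5.95% of all features tested were higher. The 2 lower ones are 4.26%, where 0.713% of all features were lower. Across the 47 members the median difference was 0.10, beside 0.01 over all features, and the range ran from -0.67 to 1.59. The 4 LPS pools and the 4 air pools did not overlap for 14 members (29.8%), namely the 11 called and Fas, Tnfrsf1a and Tnfsf4, and 16.7% of all features with a value in every pool did not overlap either. Of the 36 members that did not pass, 33 lay within 0.5 of 0. Without normalization within the array, where the median over all features shifted to -0.55, 71 features were higher and 59 lower in place of 1228 and 147, and no member passed (limma; 1 higher and 3 lower members at an unadjusted p below 0.05). With the array of air pool 4 put back, Birc2, Tnfrsf12a, Tnfrsf13c, Tnfrsf18 and Tnfrsf22 lost their calls (adjusted p of 0.204 to 0.473), and with median centring Birc2, Tnfrsf13c, Tnfrsf18, Tnfrsf22 and Tnfrsf26 did (adjusted p of 0.0753 to 0.138). With lung in Cy5 only, Birc2, Ltbr, Tnfrsf12a, Tnfrsf13c and Tnfrsf4 lost theirs (0.0549 to 0.214), and with lung in Cy3 only Birc2, Birc3, Ltbr, Tnfrsf18, Tnfrsf22 and Tnfrsf4 did (0.0661 to 0.321). In bulk lung RNA, more cells that carry a transcript cannot be told apart from more RNA per cell.

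**Figure D1:**
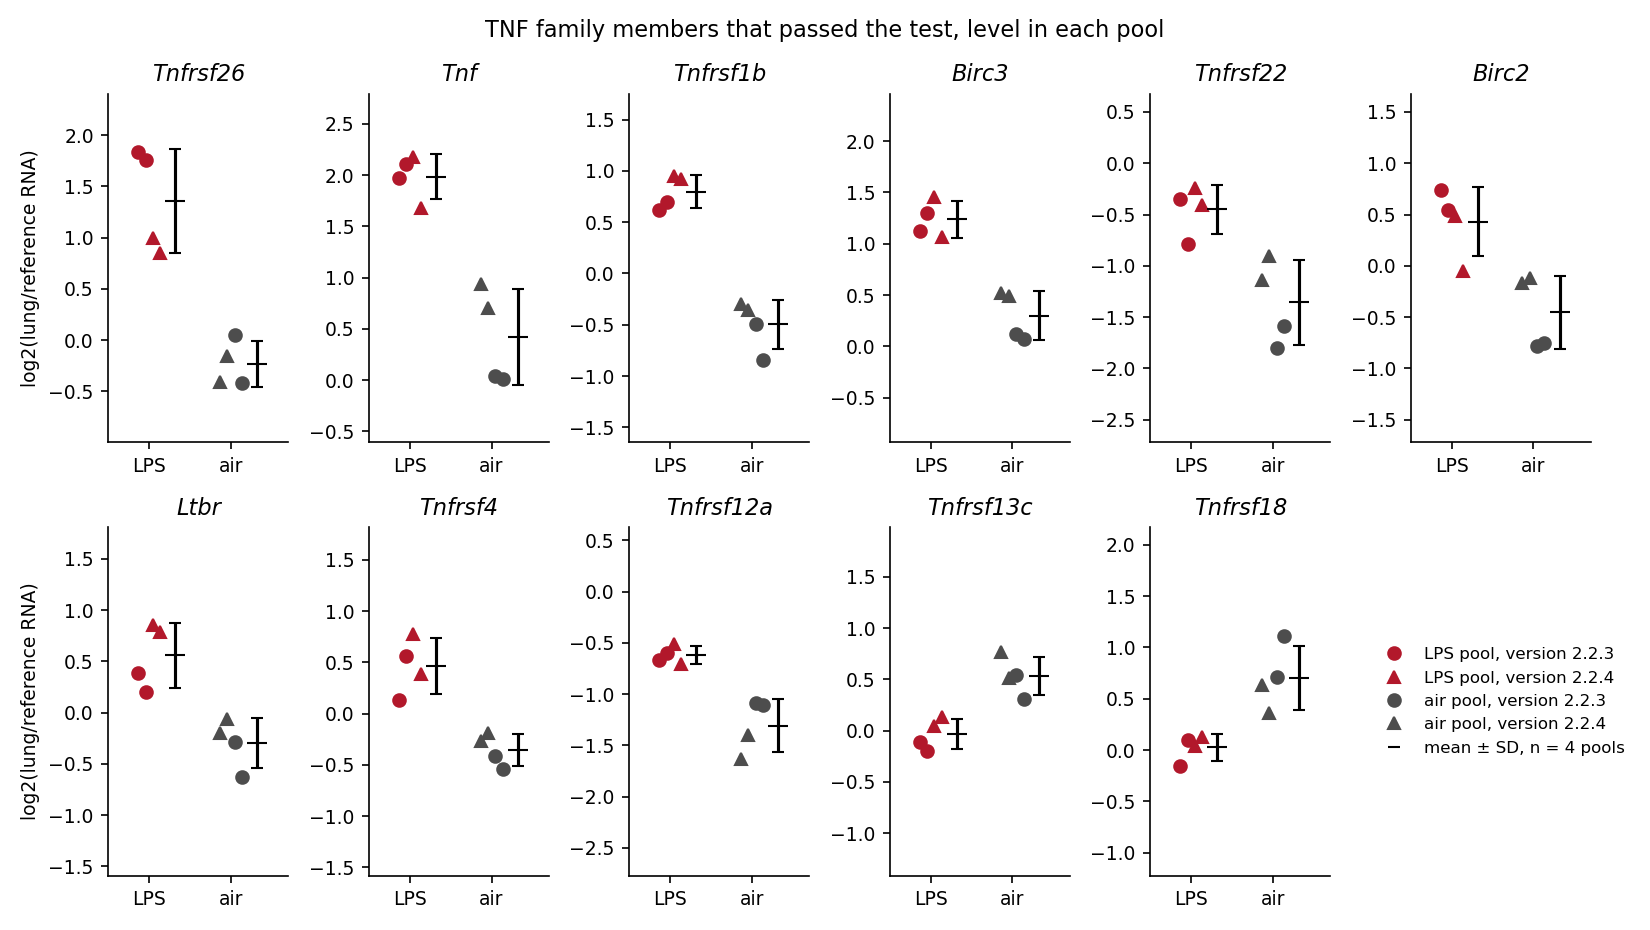
Level, as log2(lung/reference), of the 11 members that passed the test in each pool (LPS left, air right; circles and triangles mark the image-analysis versions, and bars show the mean ± SD of 4 pools). In all 11 panels the LPS pools and the air pools do not overlap; 9 are higher and 2 (Tnfrsf13c and Tnfrsf18) lower in LPS, and each panel spans the same width of the log2 scale.

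Among the ligands, only Tnf itself passed the test, and it was higher in LPS. The other 14 of the 15 ligands did not pass, and the median difference of the group was 0.12. Tnf, the founding cytokine of the family, had levels of 1.97, 2.11, 2.18 and 1.68 in LPS pools 1 to 4, against 0.94, 0.70, 0.04 and 0.01 in air pools 1 to 4. The lowest LPS pool stood well above the highest air pool, and air pools 1 and 2 lay above air pools 3 and 4. The difference was 1.56 ± 0.22 (SE, n = 4 pools per group), or 2.96-fold, with a 95% interval of 1.07 to 2.06 and a limma adjusted p of 0.00282. Within the batches it was 2.01 (version 2.2.3) and 1.11 (version 2.2.4). The test of this difference between batches (limma interaction) did not pass, at an adjusted p of 0.0649. It passed with median centring, in the authors' deposited table and with lung in Cy5 only. The call for Tnf held in each of the 8 fits without 1 pool, but in the pools of version 2.2.4 alone the limma adjusted p was 0.0503.

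Tnf lies between Ltb and Lta on mouse chromosome 17, with no other coding gene between them, and neither neighbour passed the test. Lta encodes lymphotoxin alpha, which binds the same receptors as TNF. Its levels were -0.56, -1.04, 0.14 and 0.48 in LPS pools and 0.04, -0.82, -0.24 and -1.35 in air pools, so the groups overlapped over most of their range. Ltb, whose product joins lymphotoxin alpha in a membrane-bound trimer, had -0.06, 0.00, 0.69 and 0.56 in LPS pools and -0.21, -0.01, 0.48 and 0.27 in air pools. The differences of 0.35 ± 0.37 for Lta and 0.16 ± 0.22 for Ltb had adjusted p-values of 0.615 and 0.699 (limma). For Ltb the sign differed between the batches, at -0.41 in version 2.2.3 and 0.73 in version 2.2.4.

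The upstream sequence is shown for Tnf and Ltb because only Tnf of these neighbours passed, with 250 bases upstream of the start of Tnf and the stretch of Ltb around a match. Sequences are from RefSeq (build GRCm38.p6) and run 5′ to 3′ on the gene's strand. Capitals mark a match to the NF-kB consensus, which in Ltb reads on the strand opposite to the one printed. Tnf is at chr17:35202008-35202257 (minus strand), and Ltb at chr17:35194400-35194449 (plus strand).
Tnf: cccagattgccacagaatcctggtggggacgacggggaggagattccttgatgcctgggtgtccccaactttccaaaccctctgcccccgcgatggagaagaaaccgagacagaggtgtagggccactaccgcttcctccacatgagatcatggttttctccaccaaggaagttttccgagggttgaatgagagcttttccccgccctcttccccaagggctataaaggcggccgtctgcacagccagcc
Ltb: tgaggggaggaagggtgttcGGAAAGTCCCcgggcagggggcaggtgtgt
The Ltb stretch covers bases 107 to 58 before the start. In the Tnf window this consensus was not found on either strand, nor were the AP-1 motif TGANTCA and the interferon-gamma activated motif (GAS) TTCNNNGAA. A match here is a description of the letters and says nothing of binding.

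The remaining ligands gave small differences. Fasl, the ligand of Fas made by cytotoxic lymphocytes, had 0.14, 0.02, 0.33 and 0.20 in LPS pools, against 0.23, 0.18, -0.17 and -0.73 in air pools (difference 0.29 ± 0.21, limma adjusted p = 0.427). Tnfsf10, encoding TRAIL, a ligand that can induce apoptosis, overlapped between the groups: 2.16, 2.25, 2.33 and 2.56 in LPS pools and 2.2, 2.12, 2.07 and 2.51 in air pools. Its difference was 0.10 ± 0.15, with an interval of -0.22 to 0.43, so a change above 0.43 in either direction lies outside that interval. TRAIL was thus measured with less spread than Lta, whose interval ran from -0.47 to 1.17.

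Tnfsf13b encodes BAFF, the survival factor of B cells. LPS pools gave 0.05, 0.11, 1.01 and 0.36 for it, and air pools 0.49, 0.54, 0.15 and -0.02, with a difference of 0.09 ± 0.22. The groups overlapped, and LPS pool 3 was the highest of the 8. Eda, ectodysplasin, a ligand of skin appendage development, had 0.16, -0.07, -0.44 and -0.20 in LPS pools, against -0.16, -0.41, -0.64 and -0.76 in air pools (0.36 ± 0.18, limma adjusted p = 0.264). Cd70, a costimulatory ligand of activated lymphocytes, had 0.37, 0.19, 0.56 and 0.74 in LPS pools and 1.03, 0.71, 0.42 and 0.33 in air pools (-0.16 ± 0.18). Both overlapped between the groups.

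Tnfsf11 encodes RANKL, the osteoclast-inducing ligand. It had 0.06, -0.58, 0.13 and -0.07 in LPS pools and -0.40, -0.35, -0.50 and -0.42 in air pools (0.30 ± 0.16, limma adjusted p = 0.309). Its spot was dim: the net lung signal was below the local background on 4 of 8 LPS arrays and 5 of 7 air arrays, and 1 array of air pool 3 gave no value. Tnfsf4, the ligand of OX40, was the ligand with the most negative difference, at -0.41 ± 0.16 (limma adjusted p = 0.173). As averages of their arrays, its LPS pools, at -0.16 to 0.02, all lay below its air pools, at 0.12 to 0.82. Single arrays overlapped: with lung in Cy5, LPS pool 3 was at 0.49 and the air pools at 0.18 to 0.47. The paired arrays of air pool 2 disagreed, at 1.45 with lung in Cy3 and 0.18 with lung in Cy5. The net lung signal of Tnfsf4 was below background on 2 of 8 LPS arrays and 2 of 7 air arrays. Of the other ligands, Tnfsf8, Tnfsf9, Tnfsf12, Tnfsf13 and Tnfsf14 had differences between -0.25 (Tnfsf14) and 0.26 (Tnfsf8).

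**Figure D2:**
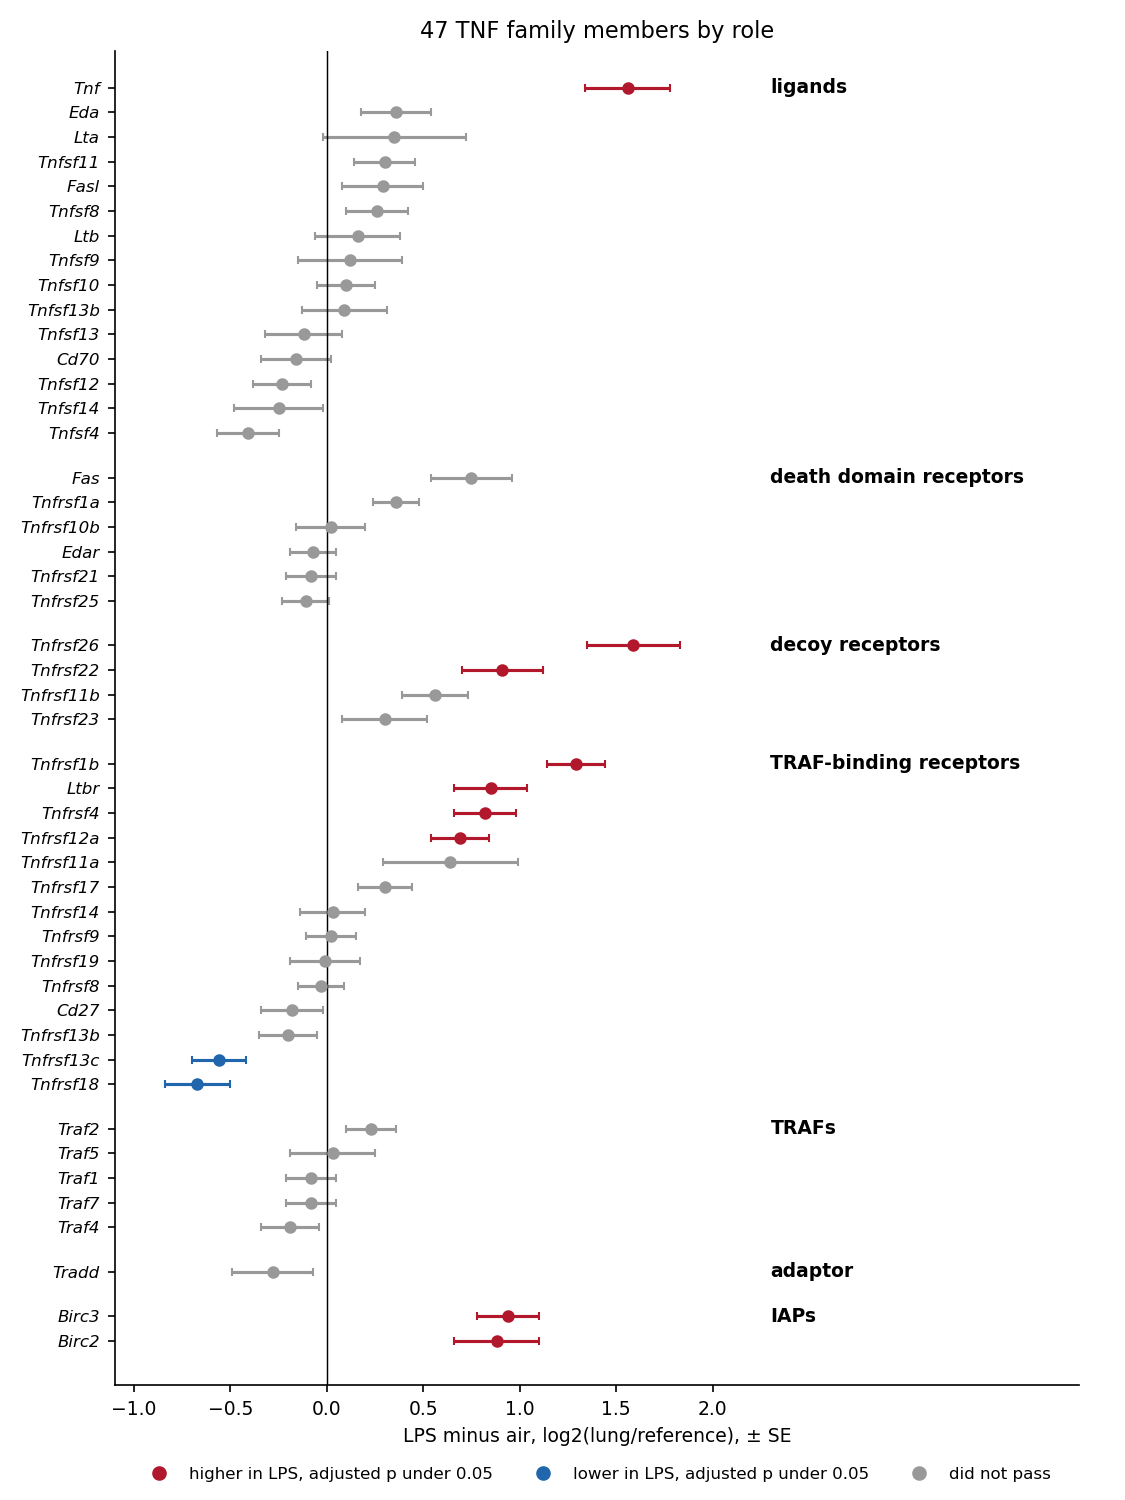
Difference between LPS and air (log2 scale, points, with bars of ± 1 SE) for all 47 members, grouped by role and coloured by the call. Red points, to the right, are the 9 higher members: Tnf, both IAPs and 6 receptors; the 5 TRAFs and the 6 death domain receptors hold no coloured point.

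The 24 receptors held 6 that rose in LPS, 2 that fell and 16 without a call. The 6 death domain receptors gave 0 calls with limma, although 2 of them, Fas and Tnfrsf1a, had unadjusted p-values below 0.05 and pools that did not overlap. Tnfrsf1a is the widely expressed TNF receptor that carries a death domain. It had 0.57, 0.76, 0.49 and 0.61 in LPS pools, against 0.19, 0.15, 0.31 and 0.33 in air pools. Every LPS pool lay above every air pool, by a small step: the difference was 0.36 ± 0.12 (adjusted p = 0.106), with 0.34 and 0.38 within the batches. An interval of 0.10 to 0.63 surrounds it.

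Fas, the receptor of Fas ligand, had 1.62, 1.44, 1.60 and 1.37 in LPS pools, against 1.22, 1.11, 0.36 and 0.35 in air pools. The LPS pools lay close together, while air pools 1 and 2 stood well above air pools 3 and 4. The difference was 0.75 ± 0.21 (limma adjusted p = 0.069), and with the batch as a block the adjusted p was 0.0261. Within the batches the difference was 1.17 (version 2.2.3) and 0.32 (version 2.2.4). Without air pool 1 it was 0.90 (adjusted p = 0.0332), and without air pool 2 it was 0.86 (adjusted p = 0.0497). Edar, the receptor of ectodysplasin, had 0.13, 0.24, 0.21 and 0.22 in LPS pools and 0.21, 0.10, 0.34 and 0.41 in air pools (-0.07 ± 0.12). The other 3 death domain receptors, Tnfrsf10b (which binds TRAIL), Tnfrsf21 and Tnfrsf25, ranged from -0.11 to 0.02. The second probe of Tnfrsf21 gave 0.25, opposite in sign to the brighter one at -0.08.

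TRAF-binding receptors moved in both directions: 4 of 14 rose in LPS, 2 fell and 8 had no call. Tnfrsf1b, the TNF receptor without a death domain, found mainly on immune and endothelial cells, had 0.62, 0.70, 0.95 and 0.92 in LPS pools. Its air pools were at -0.30, -0.36, -0.49 and -0.84. Both groups were tight and lay far apart, and the difference of 1.29 ± 0.15 (2.45-fold) had the smallest adjusted p of all members, 0.000878 (limma). It was alike in the batches, at 1.33 and 1.26, and between 1.18 and 1.36 in the 8 fits without 1 pool.

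Ltbr, the receptor of membrane lymphotoxin, which drives the alternative NF-kB pathway, had 0.39, 0.20, 0.85 and 0.79 in LPS pools, against -0.20, -0.06, -0.29 and -0.63 in air pools. As averages of their arrays, all LPS pools lay above all air pools, with LPS pool 2 the nearest to them. The paired arrays of LPS pool 2 disagreed, at -0.18 with lung in Cy3 and 0.59 with lung in Cy5. In Cy3 this pool lay below air pool 2 (-0.03) and air pool 3 (-0.14). The arrays of LPS pool 3 (1.29 and 0.4) and air pool 1 (-0.64 and 0.24) also disagreed. The difference was 0.85 ± 0.19 (1.81-fold, limma adjusted p = 0.023), with 0.76 and 0.95 within the batches. Without LPS pool 3 or 4, or without air pool 3 or 4, the call was lost (adjusted p up to 0.0654 and differences of 0.74 to 0.97 over the 8 fits without 1 pool). It was lost with either dye orientation alone too (0.74 with lung in Cy5, adjusted p = 0.0608, and 0.88 with lung in Cy3, adjusted p = 0.309). On chromosome 6 Ltbr lies between Cd27 and Tnfrsf1a with 1 coding gene on either side, and neither of these passed.

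Tnfrsf4 and Tnfrsf18 are neighbours on chromosome 4 with no coding gene between them, and they changed in opposite directions. Tnfrsf4 encodes OX40, a costimulatory receptor of activated T cells. LPS pools had 0.13, 0.56, 0.78 and 0.39 for Tnfrsf4, against -0.27, -0.19, -0.41 and -0.54 in air pools. Tnfrsf18 encodes GITR, found at high levels on regulatory T cells, and LPS pools had -0.16, 0.10, 0.04 and 0.13 for it, against 0.63, 0.36, 0.71 and 1.11 in air pools. So each LPS pool was above all air pools for Tnfrsf4 and below all air pools for Tnfrsf18.

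For Tnfrsf4 the difference was 0.82 ± 0.16 (1.77-fold, limma adjusted p = 0.0141), with 0.82 in each batch, and the call held in all 8 fits without 1 pool but not in the authors' deposited table (0.67, adjusted p = 0.0703) or with either dye orientation alone (0.77 and 0.85, adjusted p = 0.0549 and 0.0955). For Tnfrsf18 it was -0.67 ± 0.17 (adjusted p = 0.0375), that is, 1.60-fold higher in air than in LPS, with -0.94 and -0.41 within the batches. The fall of Tnfrsf18 was less stable: the call was lost without LPS pool 1, 2, 3 or 4 and without air pool 1, 3 or 4, with differences of -0.79 to -0.54 and adjusted p-values up to 0.118. It was also lost when 1 spot with a quality factor below 1, a factor the sources used here do not define, was left out (-0.62, adjusted p = 0.0552).

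Tnfrsf13c, the BAFF receptor of B cells, was the other receptor that fell. It had -0.11, -0.20, 0.04 and 0.13 in LPS pools, against 0.77, 0.51, 0.54 and 0.31 in air pools. As an average of its arrays, every LPS pool lay below every air pool. The paired arrays of LPS pools 3 and 4 disagreed, at -0.29 and -0.20 with lung in Cy3 and 0.36 and 0.46 with lung in Cy5. With lung in Cy5 these LPS pools lay within the range of the air pools (0.31 to 0.85). The difference was -0.56 ± 0.14 (limma adjusted p = 0.0388), a level 1.48-fold higher in air than in LPS, and it was alike within the batches at -0.58 and -0.55. The call was lost in 7 of 8 fits without 1 pool, without any single LPS pool or without air pool 1, 2 or 3 (-0.64 to -0.49, adjusted p up to 0.117). The other receptors of BAFF and its relative APRIL did not pass: Tnfrsf13b differed by -0.20 ± 0.15 and Tnfrsf17, a receptor of plasma cells, by 0.30 ± 0.14.

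Tnfrsf12a encodes Fn14, the receptor of TWEAK, which is induced in injured tissue. Its levels were -0.67, -0.60, -0.51 and -0.71 in LPS pools, against -1.63, -1.40, -1.09 and -1.11 in air pools. The LPS pools were nearly level with each other and all above the air pools. Single arrays overlapped: with lung in Cy5, LPS pool 1 (-0.91) lay below air pool 3 (-0.83). The difference was 0.69 ± 0.15 (1.61-fold, limma adjusted p = 0.0239), with 0.46 and 0.91 within the batches. Without LPS pool 1, 2 or 3 or without air pool 2 the call was lost (0.58 to 0.76 over the 8 fits, adjusted p up to 0.069).

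The TRAF-binding receptors that did not pass include Tnfrsf11a, Tnfrsf9 and Cd27. Tnfrsf11a, the receptor RANK, had 0.18, 0.38, 2.12 and 0.63 in LPS pools and 0.20, 0.08, 0.27 and 0.20 in air pools (0.64 ± 0.35, limma adjusted p = 0.316). LPS pool 3 stood apart, and its paired arrays disagreed, at 4.02 with lung in Cy3 and 0.21 with lung in Cy5. Tnfrsf9, a costimulatory receptor of T cells, overlapped between the groups, with -0.19, -0.26, 0.12 and -0.31 in LPS pools and -0.17, -0.13, -0.14 and -0.26 in air pools (0.02 ± 0.13). Cd27, the receptor of Cd70, had -0.20, -0.11, -0.01 and 0.15 in LPS pools and -0.19, 0.01, 0.39 and 0.35 in air pools (-0.18 ± 0.16). Tnfrsf8, Tnfrsf14 and Tnfrsf19 lay between -0.03 and 0.03, and Tnfrsf8 is the neighbour of Tnfrsf1b on chromosome 4, with no coding gene between them.

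Decoy and decoy-like receptors were all on the positive side, with 2 of 4 called. Tnfrsf22 and Tnfrsf23 are mouse receptors that bind TRAIL without a death domain. Tnfrsf26 is their neighbour on chromosome 7, and no coding gene separates the 3. Tnfrsf22 had -0.35, -0.79, -0.24 and -0.41 in LPS pools, against -1.14, -0.90, -1.80 and -1.59 in air pools. The nearest pools, LPS pool 2 and air pool 2, were separated by a narrow gap, and air pools 3 and 4 were the lowest. The paired arrays of LPS pool 2 disagreed, at -1.21 with lung in Cy3 and -0.37 with lung in Cy5. In Cy3 this pool lay below air pool 2 (-1.02). The difference was 0.91 ± 0.21 (1.88-fold, limma adjusted p = 0.0301), with 1.12 and 0.69 within the batches, and the call was lost without LPS pool 1, 3 or 4 or air pool 3 or 4 (0.76 to 1.06, adjusted p up to 0.0921).

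Tnfrsf26 had 1.83, 1.76, 1.0 and 0.85 in LPS pools, against -0.41, -0.15, 0.05 and -0.42 in air pools. LPS pools 1 and 2 lay above LPS pools 3 and 4, and all were above air. Its difference of 1.59 ± 0.24 (3.01-fold, limma adjusted p = 0.0035) was close to that of Tnf (1.56), with 1.98 and 1.20 within the batches. Its size is weakly determined, because the spot was dim: the ratio of net lung signal to local background had a median of 2.02 in LPS and 0.978 in air. It was below 1 on 3 of the 7 air arrays, and 1 more air array gave no ratio. An array of LPS pool 1 and an array of air pool 3 gave no value, and the difference was 1.36 with spots below the local background left out (adjusted p = 0.0199), 1.44 with lung in Cy5 only and 2.52 with a constant added to both channels (adjusted p = 0.17). Tnfrsf23 differed by 0.30 ± 0.22 (adjusted p = 0.444).

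Tnfrsf11b encodes osteoprotegerin, the secreted decoy of RANKL. It had -0.31, -0.72, -0.15 and -0.06 in LPS pools, against -1.01, -0.79, -0.61 and -1.08 in air pools. Only LPS pool 2 fell among the air pools. The difference was 0.56 ± 0.17 (limma adjusted p = 0.0868), and 0.70 (adjusted p = 0.0486) without that pool.

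None of the 5 TRAFs was called with limma, and 0 of them had an unadjusted p below 0.05. Traf1 and Traf2 are adaptors that carry the signal from TNF receptors to NF-kB. Traf1 had 0.43, 0.62, 0.55 and 0.67 in LPS pools and 0.79, 0.76, 0.39 and 0.65 in air pools. Traf2 had 0.06, 0.00, -0.11 and -0.04 in LPS pools and -0.11, -0.10, -0.37 and -0.41 in air pools. Traf1 overlapped fully, while only LPS pool 3 of Traf2 reached down to the air pools. The differences were -0.08 ± 0.13 for Traf1 and 0.23 ± 0.13 for Traf2, with intervals of -0.38 to 0.21 and -0.06 to 0.51. Traf4, Traf5 and Traf7 lay between -0.19 and 0.03. Tradd, the adaptor that binds the death domain of Tnfrsf1a, had -0.21, -0.08, 0.13 and 0.04 in LPS pools and -0.26, 0.68, 0.57 and 0.00 in air pools (-0.28 ± 0.21, adjusted p = 0.465).

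Both IAPs were higher in LPS, and they too are neighbours, on chromosome 9. Birc3 had 1.12, 1.30, 1.46 and 1.07 in LPS pools, against 0.52, 0.49, 0.12 and 0.07 in air pools. The lowest LPS pool was far above the highest air pool. The difference was 0.94 ± 0.16 (1.91-fold, limma adjusted p = 0.006), with 1.11 and 0.76 within the batches, and it was called in all 8 fits without 1 pool. It was not called in the pools of version 2.2.4 alone (0.76, adjusted p = 0.0627) or with lung in Cy3 only (0.86, adjusted p = 0.0661).

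Birc2 had 0.74, 0.54, 0.49 and -0.05 in LPS pools, against -0.17, -0.12, -0.78 and -0.75 in air pools. LPS pool 4 was only just above air pools 1 and 2, and 1 of the arrays of LPS pool 1 gave no value. With lung in Cy5, LPS pool 4 (-0.22) lay just below air pool 2 (-0.2). The difference was 0.88 ± 0.22 (1.84-fold, limma adjusted p = 0.0375), with 1.41 (version 2.2.3) and 0.36 (version 2.2.4) within the batches. A second probe of Birc2 gave 0.54, and with the mean of both probes the call was lost (0.71, adjusted p = 0.0632). Without LPS pool 1, 2 or 3 or without air pool 3 or 4 it was lost too (0.77 to 1.04, adjusted p up to 0.118).

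Upstream sequences are shown for Birc3, called in all fits without 1 pool, and for Tnfrsf1b. Of the 7 higher members with a window, Tnfrsf1b was the only one with any of the motifs. A stretch is also shown for Tnfrsf9, which did not pass and holds all 3 motifs. Birc3 is at chr9:7873171-7873420 (minus strand), Tnfrsf1b at chr4:145247023-145247071 (minus strand) and Tnfrsf9 at chr4:150927936-150927998 (plus strand), from the same RefSeq table and build. Capitals mark GAS in Tnfrsf1b, and in Tnfrsf9 the NF-kB consensus (a pair of overlapping matches) followed by AP-1. The GAS match of Tnfrsf9, at bases -136 to -128 from the start, lies outside the stretch shown.
Birc3: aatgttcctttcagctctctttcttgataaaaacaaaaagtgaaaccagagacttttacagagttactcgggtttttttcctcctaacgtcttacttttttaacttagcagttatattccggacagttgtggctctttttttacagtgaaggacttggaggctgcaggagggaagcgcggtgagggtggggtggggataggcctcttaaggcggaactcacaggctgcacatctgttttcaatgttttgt
Tnfrsf1b: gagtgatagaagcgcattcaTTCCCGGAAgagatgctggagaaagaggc
Tnfrsf9: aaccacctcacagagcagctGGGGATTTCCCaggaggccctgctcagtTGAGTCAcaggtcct
Across all members, 38 had a window in this table, which runs from 250 bases before to 50 after the start. Both strands were searched. The NF-kB consensus was in the windows of 0 of 7 higher members, 0 of 2 lower members and 4 of 29 members that did not pass, and in the windows of 9.55% of all 27025 genes. AP-1 (TGANTCA) was in 0 of 7, 0 of 2 and 6 of 29, and in 8.97% of all genes. GAS (TTCNNNGAA) was in 1 of 7, 1 of 2 (Tnfrsf18) and 7 of 29, and in 9.55% of all genes. No match says only that these letters are not in this window. Promoter windows of Cd70, Tnfrsf10b, Tnfrsf11b, Tnfrsf22, Tnfrsf26, Tnfsf12, Tnfsf4, Tnfsf9 and Tradd were not used here.

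Set side by side as ligand and receptor, most calls fell on the receptor. Of 25 known pairs in which both genes were measured, the receptor passed and the ligand did not in 7, the ligand passed and the receptor did not in 1, both passed in 1 and neither passed in 16. Tnf and Tnfrsf1b were the pair with both higher (1.56 ± 0.22 and 1.29 ± 0.15), and Tnf with Tnfrsf1a was the pair with only the ligand called (1.56 ± 0.22 and 0.36 ± 0.12). OX40 was higher at 0.82 ± 0.16 while its ligand Tnfsf4 was at -0.41 ± 0.16. Likewise Fn14 was higher at 0.69 ± 0.15 while its ligand Tnfsf12 (TWEAK) was at -0.23 ± 0.15. Pairs share members, so their counts are not independent, and the difference between ligands and receptors was not tested.

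**Figure D3:**
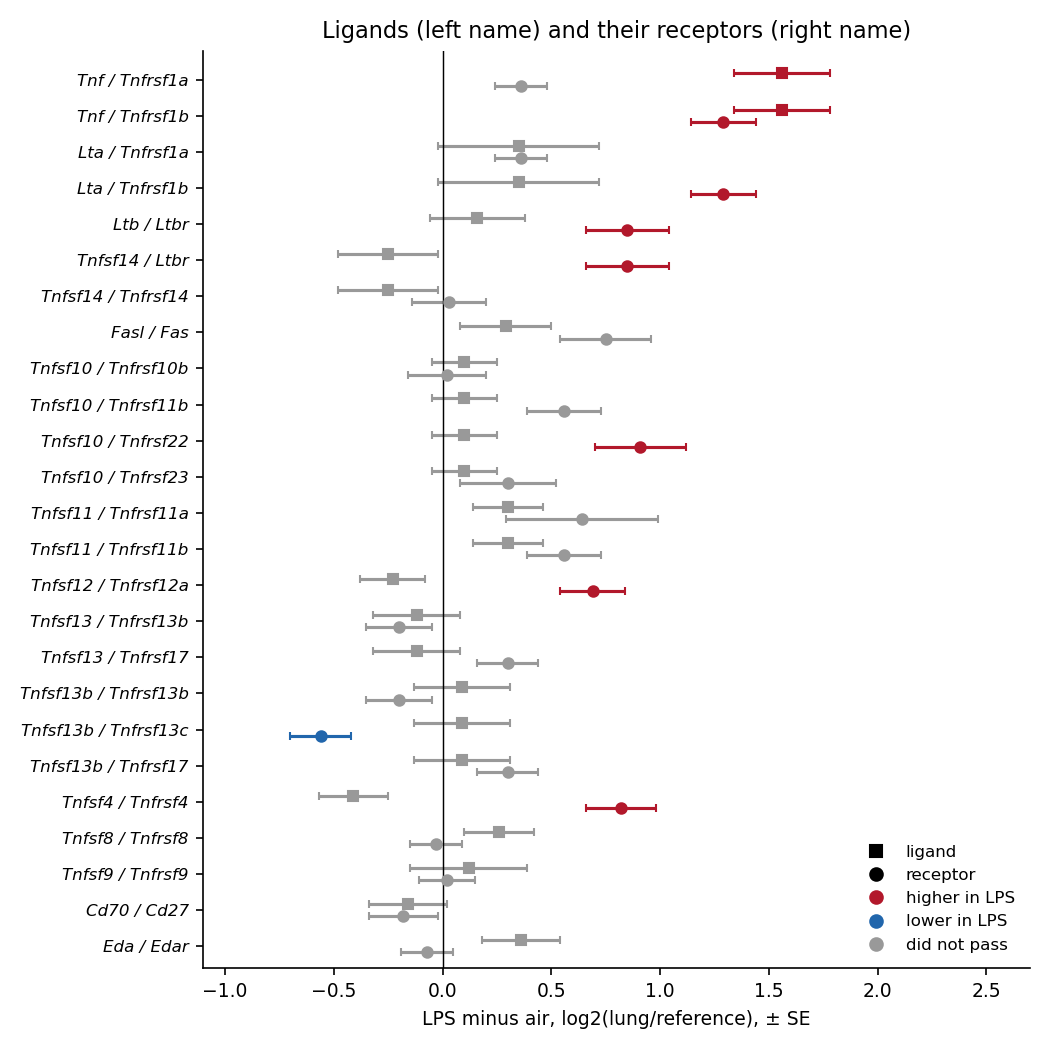
Difference between LPS and air (log2 scale, ± 1 SE) of the ligand (square) and the receptor (circle) of each of 25 pairs, coloured by the call. Tnf and Tnfrsf1b are the only pair with both symbols red; for Lta, Ltb, Tnfsf14, Tnfsf10, Tnfsf12 and Tnfsf4 a red receptor stands beside a grey ligand, and for Tnfsf13b a blue receptor (Tnfrsf13c) does.

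Outside the family, genes that act with TNF receptors were mostly on the positive side. Of 53 pathway genes listed, 48 were measured, and of these 11 rose, none fell and 37 had no call. Of all features tested, 5.95% were higher and 0.713% lower. The list was chosen with earlier results of these data known. The median of the 48 was 0.34, beside 0.01 over all features, and 44 were above 0. The smallest p-values were those of Tnfaip3 and Nfkbia. Tnfaip3 (A20), a ubiquitin-editing enzyme that dampens TNF signalling, had 2.10, 1.76, 1.80 and 1.25 in LPS pools, against -1.08, -0.61, -1.0 and -2.05 in air pools (2.91 ± 0.29, limma adjusted p = 0.000309). Nfkbia, the NF-kB inhibitor IkB alpha, had 1.21, 1.17, 1.17 and 1.34 in LPS pools, against 0.08, 0.07, -0.24 and 0.01 in air pools (1.24 ± 0.12, adjusted p = 0.00032).

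For both genes every LPS pool lay far above every air pool. The related inhibitor Nfkbie was higher by 1.34 ± 0.19, the TNF-induced gene Tnfaip2 by 0.98 ± 0.17, the TRAF-binding protein Tank by 0.91 ± 0.17 and Zfp36, which destabilises the Tnf mRNA, by 0.96 ± 0.19. Casp8, the caspase activated at death receptors, was higher by 0.74 ± 0.15 (limma adjusted p = 0.0178). The other components of that complex did not pass: Fadd, its adaptor, was at 0.05 ± 0.18 and Cflar, its inhibitor, at 0.14 ± 0.17. Adam17, the protease that sheds TNF and its receptors, was at 0.11 ± 0.19 (adjusted p = 0.774). A further list held family genes that the symbol rule did not take, such as Cd40 (0.01 ± 0.21) and Traf6 (0.00 ± 0.11), and genes named after the family. Of its 10 measured genes, 0 passed with limma and 2 had an unadjusted p below 0.05. These 2 were Tnfaip8, which is also on the pathway list, and Trafd1, and neither is a ligand, receptor or TRAF.

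**Figure D4:**
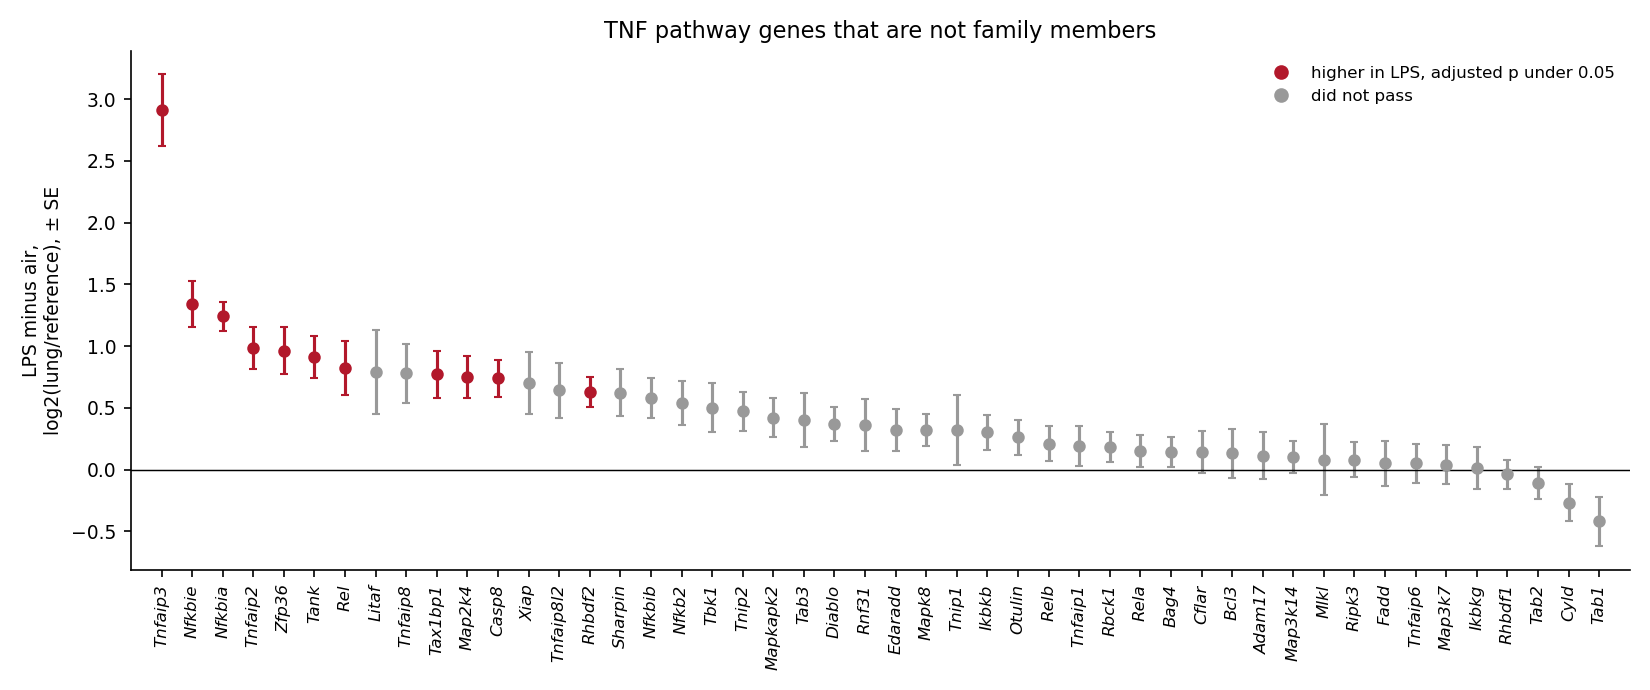
Difference between LPS and air (log2 scale, points, with bars of ± 1 SE) for the 48 measured genes of the TNF pathway that are not family members, sorted by size. Tnfaip3, at 2.91, stands far above the rest; red points are the 11 that were higher in LPS, and none was lower.

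Markers of other cells moved with the group. The counts of markers here and below stand beside 5.95% of all features higher and 0.713% lower. Of 21 measured macrophage and monocyte markers, 9 were higher and 0 lower, and their mean level ran from 1.18 to 1.74 across LPS pools, against 0.34 to 0.79 across air pools. Of 19 neutrophil markers, 9 were higher and 0 lower, with means of 1.62 to 2.53 across LPS pools, against 0.22 to 0.95 across air pools. Macrophages and neutrophils express Tnf, Tnfrsf1b, Ltbr and Birc3, and the part of these cells in the higher levels of those genes was not tested.

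Few lymphocyte markers passed. T and NK cell markers, which bear on Tnfrsf4 and Tnfrsf18, had 0 of 27 called with limma (4 with an unadjusted p below 0.05) and means of 0.09 to 0.13 across LPS pools and -0.02 to 0.14 across air pools. B and plasma cell markers, which bear on Tnfrsf13c, had 2 of 18 higher (Fcer2a and Cd72) and 0 lower, and 7 with an unadjusted p below 0.05. Among those 7, Cd79b (-0.57 ± 0.19), Blk (-0.47 ± 0.14), Mzb1 (-0.46 ± 0.20) and Pou2af1 (-0.43 ± 0.15) were on the negative side. Cd72 (1.42 ± 0.33), Fcer2a (1.03 ± 0.16) and Sdc1 (0.48 ± 0.14) were on the positive side. With the batch as a block Cd79b and Blk passed as lower (limma adjusted p = 0.0257 and 0.0435). In the same fit Fcer2a and Cd72 passed as higher (limma adjusted p = 0.000688 and 0.0216). Of the 18, 7 were above 0, with means of -0.29 to -0.04 across LPS pools and -0.26 to -0.12 across air pools, and their part in the lower level of Tnfrsf13c was not tested. Dendritic cell markers had 1 of 12 higher and 0 lower. Endothelial markers had 0 of 16 called (1 with an unadjusted p below 0.05). Their means were 1.25 to 2.27 across LPS pools and 1.42 to 2.36 across air pools. Fibroblast and smooth muscle markers, among them cells that carry Fn14, had 4 of 14 higher and 0 lower, with means of -0.13 to 0.25 across LPS pools and -0.48 to -0.14 across air pools, and their part in the higher level of Tnfrsf12a was not tested. Among the epithelial markers 1 of 21 was higher.

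The size of the difference was compared between the image-analysis batches with an interaction term in limma. It passed for 4 of 47 members, a share no higher than the 8.95% of all features with a value in every pool that passed. Version 2.2.4 gave less than version 2.2.3 for Birc2 (by -1.05, adjusted p = 0.045) and Fas (by -0.86, adjusted p = 0.04), and more for Ltb (by 1.14, adjusted p = 0.0237) and Tnfsf14 (by 1.17, adjusted p = 0.0236). Tnfsf14, the ligand LIGHT, had -0.20, 0.00, 0.68 and 0.74 in LPS pools and 0.46, 0.28, 0.65 and 0.83 in air pools, a difference of -0.84 in version 2.2.3 and 0.34 in version 2.2.4. Counts over all features moved along with those of the members. The interaction passed for 0 members and 0 of 20441 features with all 16 arrays, and for 7 members and 3409 of 20356 features with median centring. Leaving out any 1 pool also changed which members passed. Each such fit has only 1 pool in 1 combination of exposure and batch, so its counts are not given. Among air pools the version and the week number coincide, and their parts cannot be told apart.

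**Figure D5:**
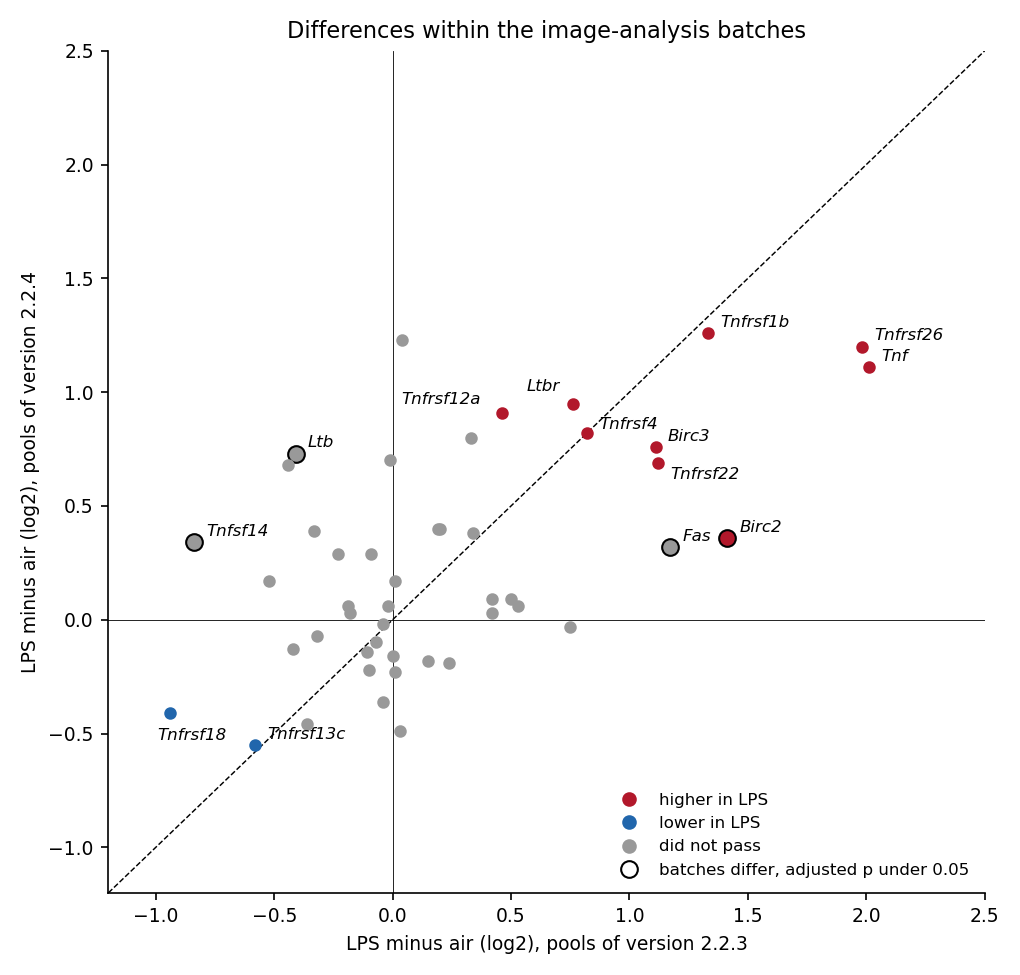
Difference between LPS and air (log2 scale) of each of the 47 members within the pools of version 2.2.3 (horizontal) and within those of version 2.2.4 (vertical), 2 LPS pools and 2 air pools in each; the dashed line marks equal differences and outlined points are the 4 members for which the batches differed. Tnfrsf1b, Tnfrsf4 and Tnfrsf13c lie next to the dashed line. All 11 called members have the same sign in both batches, as must follow when the LPS and air pools do not overlap.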

How the data were processed

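Lung RNA of 4 LPS pools and 4 air pools was compared with a reference RNA on 16 arrays. The deposited intensity values, per the file headers, were made with TIGR Spotfinder 2.2.3 or 2.2.4 and have the local background subtracted. A deposited score per spot (SF) is not defined in the sources used here. The authors' deposited log2 ratios, used only as an alternative, followed log2(lung/reference) (r = 0.982 to 0.998, column medians -0.136 to 0.0889), except for the array left out, whose slope of 0.297 fits a log10 scale. Their centring is unknown.

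From the intensities, log2 ratios were computed in R 4.3.3, normalised by loess within arrays (limma 3.58.1), turned to log2(lung/reference) and averaged over a pool's arrays, which counted as 1 replicate. Spots at or below 0 were missing. The brightest probe stood for a gene. Features with 3 or more pools per group were fitted with lmFit and eBayes (two-sided) and p-values adjusted by Benjamini-Hochberg over all of them, in code tested on simulated data. Of the 16 arrays 15 were used, because the rule that defined the members left out 1 array of air pool 4. The Cy5 channel of its file matched that of another array. The annotation names 18218 probes by 1 symbol and 16 by several, left unnamed. Neighbours were read from the gene order of GRCm38.p6. Values in every pool were given for each called member and for a list of others named by symbol. Members and lists were chosen with earlier results of these data known.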

Additional observations from a re-analysis of the deposited data

Results flagged for a closer look

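Single pools stood apart from the other pools of their group for 2 of 94 member and group combinations checked, where chance gives about 1 in 20. Traf4 was at 0.21 in air pool 4, while the other air pools lay between 0.46 and 0.51. Traf7 was at 0.19 in air pool 4, while the other air pools lay between -0.24 and -0.20. Air pool 4 rests on 1 array.

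The difference between LPS and air varied between the image-analysis versions for 4 members (limma interaction). Version 2.2.4 minus version 2.2.3 gave -1.05 for Birc2, -0.86 for Fas, 1.14 for Ltb and 1.17 for Tnfsf14, on the log2 scale. These are 4 of 47 members, no higher a share than the 8.95% of all features that passed. With all 16 arrays 0 members and 0 of 20441 features passed (8 members at an unadjusted p below 0.05). Leaving out any 1 pool changed which members passed, with only 1 pool then in 1 combination of exposure and version.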

How the results depend on the processing

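All 11 called members kept their sign in all 24 alternatives (16 settings and 8 fits without 1 pool), and 181 of these 264 values kept the call, while 83 lost it. Their LPS and air pools did not overlap, so the sign could not change in fits without 1 pool or within 1 version. Nor could it change in settings that altered only the blocks, the variance model or the features adjusted over. Of 407 values of 17 members without a call (Tnfrsf11a and Tnfsf14 are not among them), 9 gained one and 33 changed sign without one. The 1375 changed features became 501 with all 16 arrays, 735 with median centring, 130 without normalization within the array, 416 with lung in Cy3 only, 4707 in the pools of version 2.2.3 only, 857 with the pool number as a replicate block and 2265 with the image-analysis version as block. Without 1 pool they numbered 711 to 1262, with the lowest counts without LPS pool 1 (711), LPS pool 2 (752), air pool 4 (766) and LPS pool 3 (829). The cause was not tested. The 9 higher members became 4 with lung in Cy3 only, 0 without normalization (1 at an unadjusted limma p below 0.05), and 5 to 10 without 1 pool, the 5 without LPS pool 3.

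The 2 lower members, Tnfrsf13c and Tnfrsf18, became 0 with all 16 arrays, median centring, no normalization, version 2.2.4 only and the replicate block (1 to 3 at an unadjusted limma p below 0.05). There was 1 with a constant added, spots with a factor below 1 left out, or lung in Cy5 or in Cy3 only. Without 1 pool there were 0 to 1, and 1 only without air pool 2 or 4. Pools of the same number did not deviate together (r of -0.0374, -0.263, -0.0478 and -0.252), so the replicate block pairs by number alone, and 6 higher members passed under it. The 4 members whose effect differed between batches became 0 with all 16 arrays (8 at an unadjusted p below 0.05) and 7 with median centring or lung in Cy5 only. They became 1 without normalization and 2 with a constant added. The 1821 features that differed became 0 with all 16 arrays, 3409 with median centring and 2923 with lung in Cy5 only. They became 272 without normalization and 624 with a constant added. Leaving out any 1 pool changed which members passed. Those counts are not given, since 1 combination of exposure and batch then holds 1 pool. With lung in Cy3 only and in the settings built on the batch or the pool number, the comparison of the batches was not run. Tnfrsf26, Tnfsf11, Tnfsf4 and Fasl had arrays with a net lung signal below the local background.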
